A study of Mus musculus with 33 samples.

Results

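The 10 genes described here code for the ligands, receptors and signalling proteins of the RANK, CD40 and lymphotoxin crosstalk between thymocytes and thymic stroma. They are the ligand genes Tnfsf11, Lta and Ltb, the receptor genes Tnfrsf11a, Ltbr and Cd40, the decoy receptor gene Tnfrsf11b, the adaptor gene Traf6, and Relb and Nfkb2 of the alternative NF-kB pathway. All probe sets with these gene symbols were taken, which gave 20 of the 45037 probe sets in the deposited table. Of the 20, 18 passed the filter on low signal. The 2 that did not were a probe set of Tnfrsf11b and a probe set of Traf6, and each of the 10 genes kept at least 1 probe set.

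RNA from the thymus of C57bl6/J mice, labelled male and aged 4 to 6 weeks, was measured on 33 Affymetrix arrays, with 1 sample per array. No altered allele and no treatment is given for any group. Microdissected tissue gave 23 arrays: whole medulla (n = 7), whole cortex (n = 7), and the subcapsular, central and perimedullary cortex (n = 3 each). Sorted cells gave the other 10: medullary thymocytes (n = 5), gated as CD3hi and CD45+, and cortical thymocytes (n = 5), gated as CD45+ cells that lacked CD3 or had little of it and carried CD90 or CD117. The sort gate on CD3 therefore separates thymocytes by maturity. Replicates are labelled biological, yet no label says which animal a region came from. Arrays may therefore share an animal, which the tests do not take into account. The kit for RNA isolation differed (RNAqueous Micro for tissue, RNeasy Mini for sorted cells), so differences between tissue and cells cannot be told apart from those between kits.

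As background, medullary thymic epithelial cells mature under signals from members of the tumour necrosis factor family that are made by developing T cells and by other haematopoietic cells. RANK ligand binds RANK, CD40 ligand binds CD40, and membrane lymphotoxin binds the lymphotoxin beta receptor. These receptors act through TRAF adaptors and the kinase NIK on RelB and the product of Nfkb2, and the pathway is known to be needed for the medullary epithelium that makes Aire.

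RefSeq promoter windows of 300 bases around a gene's start (GRCm38.p6) were found for 7 of the 10 genes, with 9 windows in all. Cd40, Relb and Tnfrsf11b had no entry in the table. Lta and Ltb are shown because they lie near each other on chromosome 17, with Tnf between them, and both were higher in medulla. Nfkb2 is shown because it was higher in medulla too and has several annotated starts. Each window is printed on the gene's strand, 5′ to 3′, and capitals mark matches to a short form of the kappa B motif (GGG, any 3 bases, then TTCC), searched on both strands.

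Ltb, chr17:35194257-35194556, plus strand: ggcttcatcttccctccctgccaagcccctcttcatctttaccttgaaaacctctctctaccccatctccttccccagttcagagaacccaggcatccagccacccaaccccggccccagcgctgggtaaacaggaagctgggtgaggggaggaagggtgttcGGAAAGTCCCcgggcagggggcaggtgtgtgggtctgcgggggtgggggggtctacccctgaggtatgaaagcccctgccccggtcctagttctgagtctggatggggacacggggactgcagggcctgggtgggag

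Lta, chr17:35205302-35205601, minus strand: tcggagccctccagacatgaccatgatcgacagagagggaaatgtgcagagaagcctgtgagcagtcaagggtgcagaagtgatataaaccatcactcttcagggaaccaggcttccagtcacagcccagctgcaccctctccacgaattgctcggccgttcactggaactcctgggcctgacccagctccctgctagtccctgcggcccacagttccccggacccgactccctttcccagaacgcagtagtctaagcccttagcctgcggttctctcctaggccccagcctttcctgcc

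Nfkb2, first window, chr19:46304487-46304786, plus strand: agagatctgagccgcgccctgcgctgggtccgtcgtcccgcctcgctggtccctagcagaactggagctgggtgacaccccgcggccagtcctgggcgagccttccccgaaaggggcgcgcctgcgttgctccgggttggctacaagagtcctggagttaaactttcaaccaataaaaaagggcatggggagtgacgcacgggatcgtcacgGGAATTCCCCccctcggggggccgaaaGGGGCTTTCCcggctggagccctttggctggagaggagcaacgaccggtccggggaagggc

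Nfkb2, second window, chr19:46305445-46305744, plus strand: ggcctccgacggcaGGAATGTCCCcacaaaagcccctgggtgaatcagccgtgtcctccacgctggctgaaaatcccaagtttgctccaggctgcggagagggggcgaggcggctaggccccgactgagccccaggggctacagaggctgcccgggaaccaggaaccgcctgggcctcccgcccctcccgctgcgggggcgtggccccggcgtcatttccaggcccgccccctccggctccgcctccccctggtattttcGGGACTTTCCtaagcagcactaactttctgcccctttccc

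The Ltb window had 1 match, on the minus strand, starting 87 bases before the gene's start, and the Lta window had 0. The first and second Nfkb2 windows had 2 matches each. The remaining Nfkb2 window had 1, which is the plus-strand match of the second window, since these windows overlap. No match was found in the windows of Tnfrsf11a, Traf6, Ltbr and Tnfsf11. Of all 32851 windows of 300 bases in the table, 1825 (5.56%) held a match.

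The 9 arrays of the cortical subregions go against their label in 1 respect. Xist, the transcript of the inactive X chromosome, had a signal of 9826 to 15198 on these 9 arrays and of 1.19 to 51.4 on the other 24. Eif2s3y, on the Y chromosome, had 482 to 1149 in subcapsular, 1.47 to 24.0 in central and 634 to 962 in perimedullary cortex, and 1725 to 3390 on the other 24 arrays. Comparisons among the subregions rest on these 9 arrays alone. For the other comparisons, a fit without them gave the same numbers of called crosstalk genes as the fit of all arrays. Median signals of the arrays lay between 71.9 and 163, and 13 arrays had a wide upper tail (0.1% of probe sets above 42000): whole medulla 1 to 5, whole cortex 1 to 5 and medullary thymocytes 1 to 3. Marker lists followed the labelled compartments. The summed signal of 8 medullary epithelial markers was 19588 to 22380 in whole medulla and 1219 to 1853 in whole cortex, and that of 7 cortical epithelial markers was 15367 to 19051 in whole medulla and 47539 to 58730 in whole cortex.

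In dissected tissue, 8 of the 10 crosstalk genes were higher in whole medulla than in whole cortex and 0 were lower. These were all 3 ligand genes, the receptor genes Tnfrsf11a and Cd40, the decoy receptor gene Tnfrsf11b, and both NF-kB genes. The 2 that did not pass were Ltbr and Traf6. A gene was called at a Benjamini-Hochberg adjusted p below 0.05 in limma and an absolute log2 fold change of at least 1, on the log2 scale of signal plus an offset of 26.2, which understates the change of weak signals. Of all 13463 genes tested, 18.7% were called higher and 5.39% lower. The median log2 fold change of the 10 genes was 2.90, and that of all genes tested was 0.11. In bulk tissue, fewer cells of a type and less RNA per cell cannot be told apart.

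Tnfsf11, which codes for RANK ligand, had a lowest signal of 399, a median of 508 and a highest of 752 in whole medulla, and 7.93, 72.2 and 99.9 in whole cortex. Every medulla array was above every cortex array, and whole cortex replicate 1 was far below the other cortex arrays. The log2 fold change was 2.70 (SE 0.21, limma adjusted p = 1.1e-13). Lta, whose product forms lymphotoxin alone or together with lymphotoxin beta, had 348, 482 and 575 in whole medulla and 9.45, 12.9 and 85.0 in whole cortex. The cortex arrays spread widely at low signal, but none came near the medulla arrays (log2 fold change 3.21, SE 0.24, limma adjusted p = 4.5e-14). Ltb, the membrane anchor of lymphotoxin, had 8713, 10363 and 11800 in whole medulla and 2338, 4326 and 4668 in whole cortex. Ltb was thus well measured in both compartments, and its log2 fold change was 1.40 (SE 0.13, limma adjusted p = 1.6e-11).

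Tnfrsf11a, which codes for the receptor RANK, had 326, 374 and 533 in whole medulla and 24.7, 137 and 180 in whole cortex. The groups did not overlap, and Tnfrsf11a was higher in medulla (log2 fold change 1.64, SE 0.23, limma adjusted p = 1.5e-07). Cd40, a receptor of epithelial cells, B cells and dendritic cells, had 1568, 1823 and 2210 in whole medulla and 136, 179 and 291 in whole cortex. Its lowest medulla array was several times its highest cortex array (log2 fold change 3.12, SE 0.19, limma adjusted p = 1.8e-16). Ltbr, the lymphotoxin beta receptor, had 272, 432 and 542 in whole medulla and 180, 313 and 456 in whole cortex. The ranges of Ltbr overlapped, and its log2 fold change of 0.36 (95% interval -0.08 to 0.81, limma adjusted p = 0.15) did not pass.

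Tnfrsf11b codes for osteoprotegerin, a soluble decoy that binds RANK ligand. It had 100, 420 and 927 in whole medulla and 0.73, 2.77 and 33.3 in whole cortex. The medulla arrays differed from each other more than for any other crosstalk gene in relation to their mean (mean 463, SD 295, n = 7), and 0 of 7 cortex arrays were above their array's median. Tnfrsf11b passed the filter on low signal only through whole medulla, where 6 of 7 arrays were above their array's median. Its calls in comparisons with whole medulla are therefore not independent of that filter. The probe set that did not pass gave a log2 fold change of 1.86 (SE 0.22). The brighter probe set, which represents the gene, gave 3.59 (SE 0.30, limma adjusted p = 9.1e-13). With cortex signals this low the size depends on the offset, and it lay between 3.03 and 5.01 over the alternatives that tested it. Traf6, the adaptor that RANK and CD40 use, had 397, 537 and 624 in whole medulla and 425, 600 and 775 in whole cortex. These ranges nearly coincided, and the log2 fold change was -0.14 (95% interval -0.37 to 0.10, limma adjusted p = 0.32).

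Relb, the NF-kB subunit of the alternative pathway, had 1865, 2169 and 2324 in whole medulla and 128, 168 and 254 in whole cortex. With a log2 fold change of 3.42 and an SE of 0.14, Relb had the smallest adjusted p of the 10 genes (limma, 5.6e-21). Nfkb2, whose product is cut to the partner of RelB, had 900, 1323 and 1448 in whole medulla and 17.9, 111 and 224 in whole cortex. Whole cortex replicate 2 was the low array, and the groups did not overlap (log2 fold change 3.10, SE 0.24, limma adjusted p = 1.4e-13). In all, 8 of the 10 genes had every medulla array above every cortex array, which 19.1% of all genes tested also had.

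**Figure D1:**
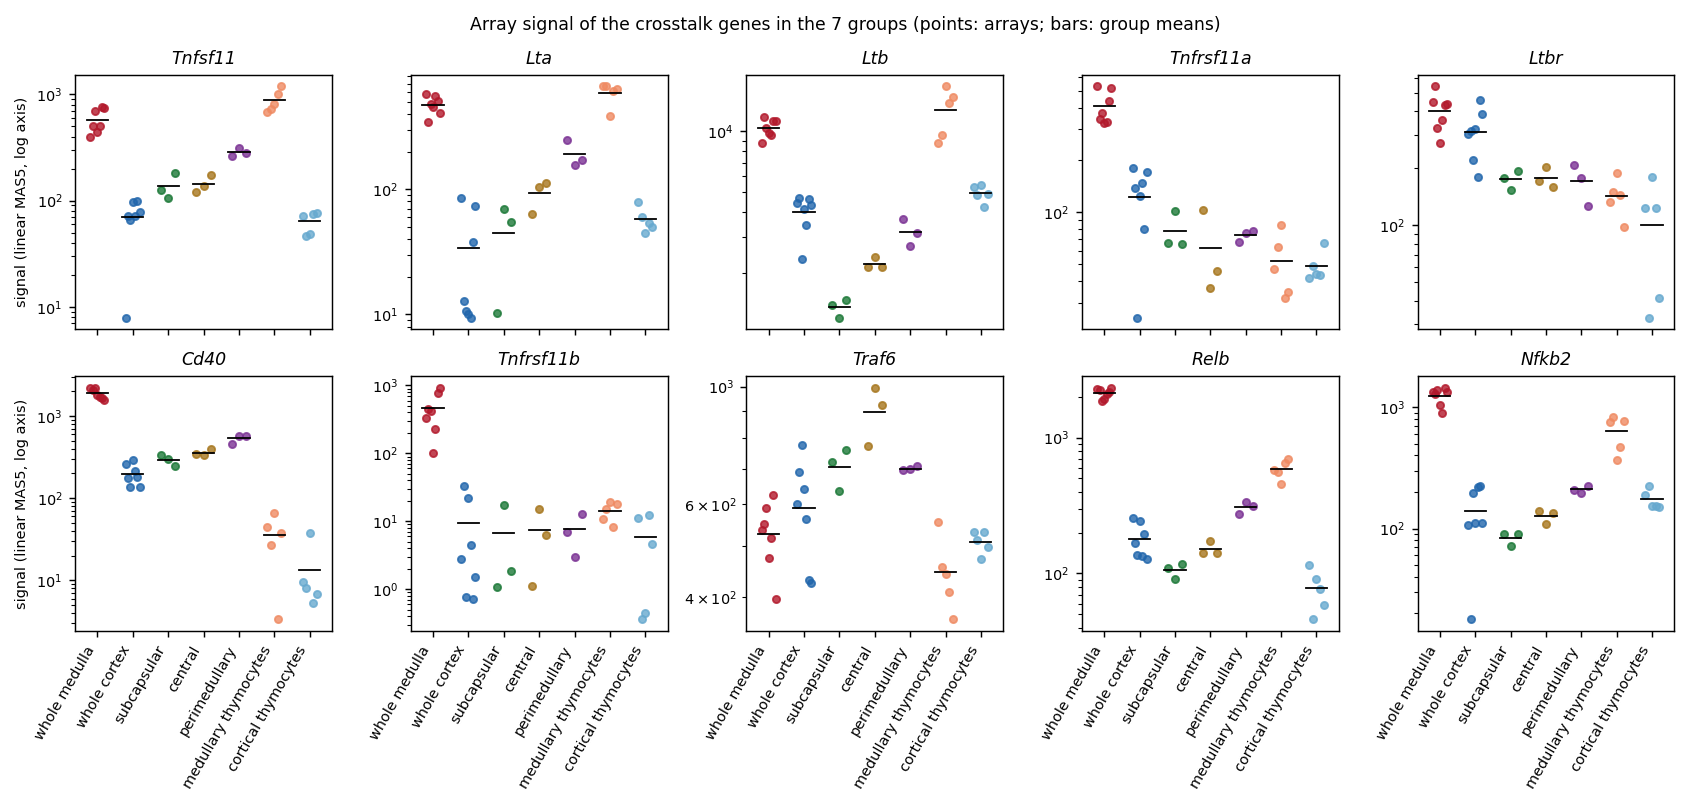
Signal of the 10 crosstalk genes in the 7 groups, 1 panel per gene, on a log axis with its own range (linear MAS5 signal). Points are arrays and bars are group means. The whole medulla arrays of Relb sit between 1865 and 2324, above all other groups, and those of Tnfsf11 lie below or level with the medullary thymocytes.

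Other cells differed between the dissected compartments at the same time. In whole medulla and whole cortex, the summed signal of 7 dendritic cell markers was 24336 to 43328 and 981 to 1285, that of 6 B cell markers 2508 to 4439 and 915 to 1514, and that of 4 markers of mature thymocytes 15365 to 18316 and 1306 to 2074. The sum was 21099 to 27795 in whole medulla and 5755 to 7882 in whole cortex for 6 macrophage markers, 4978 to 6378 in whole medulla and 1782 to 3112 in whole cortex for 5 mesenchymal markers, and 2135 to 2921 in whole medulla and 406 to 555 in whole cortex for 3 markers of innate-like lymphocytes. Called higher in medulla were 6 of 7 dendritic cell genes, 4 of 6 B cell genes, 4 of 4 mature thymocyte genes, 2 of 6 macrophage genes, 4 of 5 mesenchymal genes and 3 of 3 innate-like lymphocyte genes, against 18.7% of all genes tested. Of the 6 macrophage genes, 1 was called lower in medulla. The median log2 fold change of the macrophage genes was 0.03, against 0.11 for all genes tested. The part of these cell types in the differences of the crosstalk genes was not tested in the tissue itself. The sorted thymocytes give the thymocyte side of the comparison.

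In sorted medullary thymocytes, 5 of the 10 genes were higher than in cortical thymocytes and 0 were lower: the 3 ligand genes and both NF-kB genes. Of all genes tested, 7.69% were called higher and 6.31% lower in this comparison. The receptor genes Tnfrsf11a, Ltbr and Cd40, the decoy gene Tnfrsf11b and the adaptor gene Traf6 were not called. Markers of mature thymocytes were called higher in the medullary cells in 4 of 4 genes (summed signal 25320 to 32294 in medullary and 726 to 835 in cortical thymocytes), as were those of innate-like lymphocytes in 3 of 3 (1945 to 3149 in medullary and 77.3 to 203 in cortical thymocytes). Of 4 regulatory T cell markers, 2 were called higher and 1 lower (summed signal 5793 to 6801 in medullary and 3275 to 3773 in cortical thymocytes). The part of these cell types in the differences of the crosstalk genes was not tested.

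Tnfsf11 had 680, 727, 820, 1003 and 1195 in medullary thymocytes and 71.8, 46.6, 48.6, 75.4 and 76.1 in cortical thymocytes. All medullary arrays were far above all cortical arrays, and Tnfsf11 was higher (log2 fold change 3.33, SE 0.25, limma adjusted p = 6.6e-14), with the largest change of the 10 genes in this comparison. Lta had 666, 669, 383, 609 and 638 in medullary thymocytes and 79.7, 59.5, 45.0, 54.1 and 50.2 in cortical thymocytes. Replicate 3 was the low array of the medullary group but still well above the cortical group (log2 fold change 2.87, SE 0.28, limma adjusted p = 9.9e-11). Ltb had 8727, 9618, 16757, 13745 and 14730 in medullary thymocytes and 5301, 4816, 5435, 4221 and 4893 in cortical thymocytes. Cortical thymocytes thus had a high Ltb signal of their own, and the log2 fold change was 1.32 (SE 0.16, limma adjusted p = 6.3e-09).

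Relb had 574, 560, 451, 652 and 694 in medullary thymocytes and 115, 46.2, 91.8, 76.7 and 58.7 in cortical thymocytes. The groups were clearly apart (log2 fold change 2.59, SE 0.17, limma adjusted p = 3e-15). Nfkb2 had 761, 837, 369, 473 and 768 in medullary thymocytes and 189, 223, 152, 155 and 152 in cortical thymocytes. Replicates 3 and 4 were the low arrays of the medullary group, and all 5 were above the cortical group (log2 fold change 1.69, SE 0.28, limma adjusted p = 7.1e-06). The 5 genes called were also the 5 whose arrays did not overlap between the groups, against 16.7% of all genes tested.

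The receptors were weak in the sorted cells. Cd40 had 44.8, 26.9, 65.3, 3.38 and 37.6 in medullary thymocytes and 9.48, 8.07, 37.4, 5.33 and 6.75 in cortical thymocytes. These values overlap and lie far below the tissue, and the log2 fold change of 0.60 (SE 0.22, limma adjusted p = 0.03) was under the fold threshold. Tnfrsf11a had 46.9, 63.0, 84.4, 32.0 and 34.6 in medullary thymocytes and 42.0, 49.2, 44.3, 43.7 and 66.8 in cortical thymocytes. Its difference was 0.02 on the log2 scale (95% interval -0.54 to 0.59, limma adjusted p = 0.96). Tnfrsf11b lay between 8.34 and 19.4 in medullary thymocytes and between 0.36 and 12.5 in cortical thymocytes, so it was near the bottom of the scale in both.

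Ltbr had 133, 150, 188, 145 and 98.1 in medullary thymocytes and 124, 32.6, 180, 123 and 41.4 in cortical thymocytes. The cortical arrays spread over most of the medullary range, and the log2 fold change was 0.56 (95% interval 0.03 to 1.09, limma adjusted p = 0.084). Traf6 had 556, 457, 442, 410 and 364 in medullary thymocytes and 532, 514, 472, 531 and 499 in cortical thymocytes. Its log2 fold change was -0.19 (95% interval -0.48 to 0.09, limma adjusted p = 0.28). Among markers of other cells, those of medullary epithelium summed to 333 to 551 in medullary and 558 to 824 in cortical thymocytes, and those of dendritic cells to 271 to 618 in medullary and 98.1 to 290 in cortical thymocytes. B cell markers summed to 723 to 880 in medullary and 880 to 1141 in cortical thymocytes, and 4 endothelial markers to 790 to 1275 in medullary and 773 to 966 in cortical thymocytes.

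The compartment difference of tissue was then set against that of sorted thymocytes by an interaction term. It was larger in tissue for 4 of the 10 genes, Tnfrsf11b, Cd40, Tnfrsf11a and Nfkb2, and smaller for 0. Of all genes tested, 12.8% were called larger in tissue and 2.22% larger in thymocytes. The log2 difference of the differences was 3.24 for Tnfrsf11b (SE 0.46, limma adjusted p = 9.7e-07), 2.52 for Cd40 (SE 0.29, limma adjusted p = 1.6e-08), 1.61 for Tnfrsf11a (SE 0.36, limma adjusted p = 0.00058) and 1.41 for Nfkb2 (SE 0.37, limma adjusted p = 0.0033). The other Nfkb2 probe set gave 0.60 (SE 0.44, limma adjusted p = 0.37 over all probe sets) and was not called. Relb had 0.83 (SE 0.22, limma adjusted p = 0.0037), under the fold threshold.

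The ligand genes were not called in this test. Lta had an interaction of 0.33 (95% interval -0.42 to 1.09, limma adjusted p = 0.54) and Ltb of 0.08 (95% interval -0.34 to 0.50, limma adjusted p = 0.81). The interval of Ltb lies within the fold threshold on both sides, while that of Lta reaches past it. Tnfsf11 had -0.63 (95% interval -1.29 to 0.03, limma adjusted p = 0.14) with the brighter of its probe sets. With its other probe set it had -1.35 (SE 0.41, limma adjusted p = 0.015 over all probe sets), a call in the direction of a larger difference in thymocytes, which 1.92% of all probe sets tested had. That probe set passed the filter on low signal only through medullary thymocytes, where 5 of 5 arrays were above their array's median. Its call is therefore not independent of that filter. Ltbr had -0.19 (95% interval -0.89 to 0.50) and Traf6 0.06 (95% interval -0.31 to 0.43), and neither passed. Another Traf6 probe set was called larger in tissue at 1.11 (SE 0.40, limma adjusted p = 0.038 over all probe sets).

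**Figure D2:**
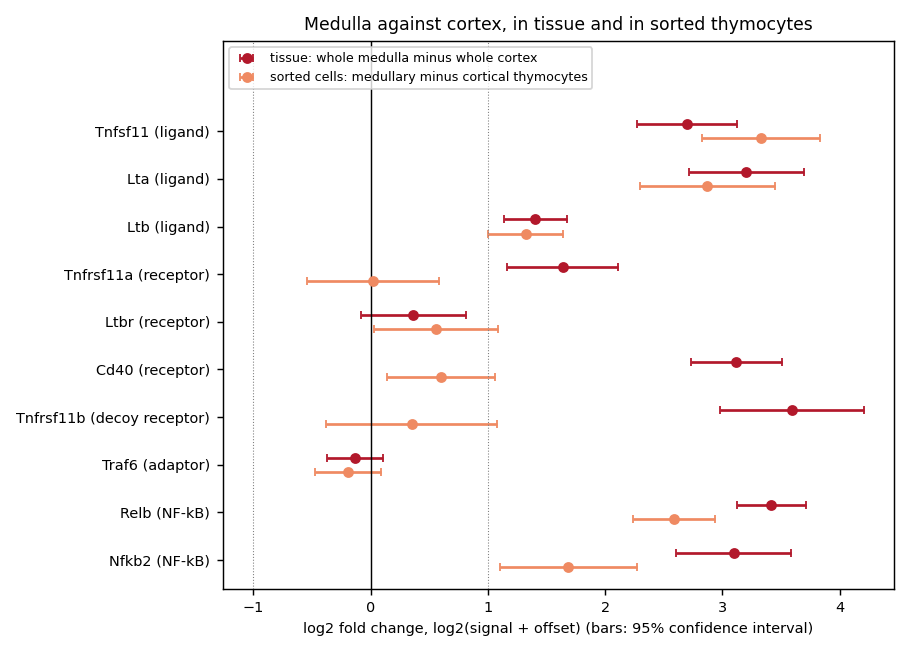
Log2 fold change of each crosstalk gene between medulla and cortex, in dissected tissue (dark red, whole medulla minus whole cortex, n = 7 each) and in sorted cells (orange, medullary minus cortical thymocytes, n = 5 each). Bars are 95% confidence intervals and dotted lines mark the fold threshold. The intervals of the ligand genes, Ltbr and Traf6 overlap between tissue and sorted cells. Those of Tnfrsf11a, Cd40, Tnfrsf11b, Relb and Nfkb2 do not, with Cd40 at 3.12 in tissue and 0.60 in sorted cells.

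Tissue was also set directly against sorted cells of the same compartment, which uses the arrays of the comparisons above again. In whole medulla against medullary thymocytes, 5 genes were higher in tissue and 0 lower: Cd40, Tnfrsf11b, Tnfrsf11a, Relb and Ltbr. Of all genes tested, 19.5% were called higher and 1.23% lower there. Arrays did not overlap for these 5 and for Nfkb2, against 21.3% of all genes tested. Cd40 had a log2 fold change of 5.03 (SE 0.21), Tnfrsf11b of 3.34 (SE 0.33) and Tnfrsf11a of 2.49 (SE 0.25). Relb had 1.82 (SE 0.16) and Ltbr 1.34 (SE 0.24), and the limma adjusted p of Ltbr, the largest of the 5, was 1.3e-05. Nfkb2 had 0.98 (SE 0.26, limma adjusted p = 0.0021), just under the fold threshold.

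The ligand genes had negative values in that comparison. Tnfsf11 had -0.60 (95% interval -1.07 to -0.14, limma adjusted p = 0.026), Lta -0.29 (95% interval -0.83 to 0.24, limma adjusted p = 0.37) and Ltb -0.25 (95% interval -0.55 to 0.04, limma adjusted p = 0.15). None reached the fold threshold, and the arrays of tissue and sorted cells overlapped for all 3. The markers of mature thymocytes summed to 15365 to 18316 in whole medulla and 25320 to 32294 in medullary thymocytes.

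In whole cortex against cortical thymocytes, 2 genes were higher in tissue and 0 lower, while 9.64% of all genes tested were called higher and 1.52% lower. Cd40 had a log2 fold change of 2.52 (SE 0.21, limma adjusted p = 2.3e-12) and Ltbr of 1.53 (SE 0.24, limma adjusted p = 3.1e-06), with no overlap of the arrays for either. Relb had 0.99 (SE 0.16, limma adjusted p = 4.3e-06), also with no overlap (12.7% of all genes tested had none), and Tnfrsf11a 0.88 (SE 0.25, limma adjusted p = 0.0055). Without whole cortex replicate 3, the array with the lowest Tnfrsf11a signal, both Relb and Tnfrsf11a passed as well and the count was 4. Tnfrsf11b, at the bottom of the scale in both groups, had 0.10 (95% interval -0.57 to 0.77).

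Within the cortex, the 3 dissected subregions were compared from the capsule inward. In perimedullary against subcapsular cortex, 4 of the 10 genes were higher and 0 lower: Lta, Relb, Ltb and Nfkb2. Of all genes tested, 2.94% were called higher and 1.66% lower. Arrays did not overlap for 6 of the 10 genes, these 4 with Tnfsf11 and Cd40, all higher in perimedullary cortex, against 21.9% of all genes tested. The share of all genes without overlap with central cortex is not given. No weight is therefore put on the separation of central cortex arrays described below.

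Lta had 10.2, 69.2 and 55.2 in subcapsular, 63.9, 104 and 112 in central and 247, 158 and 171 in perimedullary cortex. The perimedullary arrays were the highest of the 3 regions, and subcapsular and central arrays overlapped. Lta was higher in perimedullary than in subcapsular cortex by a log2 fold change of 1.71 (SE 0.36, limma adjusted p = 0.00084). Ltb had 1386, 1198 and 1466 in subcapsular, 2119, 2390 and 2126 in central and 3697, 2697 and 3131 in perimedullary cortex. The 3 regions of Ltb were separated from each other, with a perimedullary over subcapsular log2 fold change of 1.21 (SE 0.20, limma adjusted p = 3.3e-05).

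Relb had 110, 90.8 and 117 in subcapsular, 140, 173 and 141 in central and 272, 333 and 314 in perimedullary cortex. Here too no 2 regions overlapped, and the perimedullary over subcapsular log2 fold change was 1.33 (SE 0.22, limma adjusted p = 3.1e-05). Nfkb2 had 90.0, 71.4 and 91.0 in subcapsular, 139, 109 and 135 in central and 208, 197 and 226 in perimedullary cortex. The arrays of Nfkb2 were in the same order without overlap, but its log2 fold change of 1.1 (SE 0.37, limma adjusted p = 0.034) lost its call when any 1 of the 6 arrays was left out, with adjusted p then between 0.063 and 0.12.

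Tnfsf11 had 126, 105 and 180 in subcapsular, 121, 138 and 173 in central and 263, 313 and 278 in perimedullary cortex. Subcapsular and central cortex were at one level and perimedullary cortex above both, with a log2 fold change over subcapsular cortex of 0.95 (SE 0.32, limma adjusted p = 0.034), under the fold threshold. Cd40 had 333, 304 and 247 in subcapsular, 347, 334 and 393 in central and 453, 573 and 573 in perimedullary cortex. Its log2 fold change of perimedullary over subcapsular cortex was 0.80 (SE 0.29, limma adjusted p = 0.053). Tnfrsf11a, Ltbr, Tnfrsf11b and Traf6 had values between -0.05 and 0.06 in this comparison, with a 95% interval from -0.37 to 0.36 for Traf6 and from -0.77 to 0.68 for Tnfrsf11a.

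In perimedullary against central cortex, 0 of the 10 genes were called by limma, while 1.34% of all genes tested were called higher and 0.0371% lower. In subcapsular against central cortex 0 were called as well, while 0.876% of all genes tested were called higher and 0.446% lower. At an unadjusted limma p below 0.05, 4 of the 10 genes passed in perimedullary against central cortex and 2 in subcapsular against central cortex. The share of all genes tested that passed this looser threshold was not computed, so no weight is put on these counts. Relb was closest in the first of these, with a log2 fold change of 0.91 (SE 0.22, limma adjusted p = 0.014), and Ltb in the other, with -0.70 (SE 0.20, limma adjusted p = 0.024). The 3 subregion comparisons share arrays with each other.

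**Figure D3:**
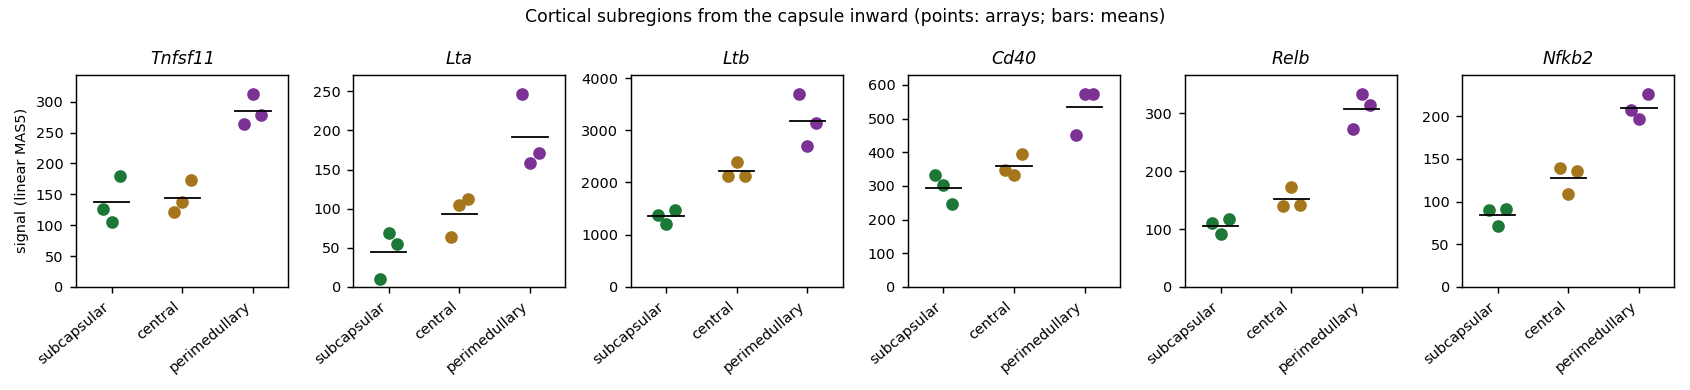
Signal of 6 crosstalk genes in the cortical subregions, ordered from the capsule inward, on linear axes that start at 0 (linear MAS5 signal). Points are arrays (n = 3 per region) and bars are means. In each panel the 3 perimedullary arrays lie above all subcapsular and central arrays, as in Relb with 272 to 333 against at most 173. The 6 genes shown are those without overlap between perimedullary and subcapsular cortex, which 21.9% of all genes tested also had. That share is not given for perimedullary against central cortex, where limma called 0 of the 10 genes. Tnfrsf11a, Ltbr, Tnfrsf11b and Traf6 are not shown. Only the probe set that represents each gene is drawn.

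Several marker lists also differed between the subregions. From subcapsular over central to perimedullary cortex, the summed markers of mature thymocytes were 1479 to 1931, 1545 to 2104 and 4781 to 5465, those of dendritic cells 578 to 737, 1143 to 1569 and 2805 to 3269, and those of B cells 805 to 932, 1066 to 1232 and 2251 to 3043. Those of medullary epithelium were 1115 to 1493, 1238 to 1336 and 1872 to 1991, with 3 of 8 genes called higher in perimedullary than in subcapsular cortex. Macrophage markers summed to 5049 to 6132, 5598 to 7211 and 12252 to 13925, and mesenchymal markers, highest under the capsule, to 3278 to 3779, 1014 to 1256 and 1372 to 1544. Their part in the differences of the crosstalk genes was not tested. By the probe sets that represent them, all crosstalk genes but Traf6 also had a lower signal in perimedullary cortex than in whole medulla. The highest perimedullary array of Relb was 333 and the lowest medulla array 1865. Traf6 had 695 to 708 in perimedullary cortex and 397 to 624 in whole medulla. The subregion arrays stand apart in Xist and Eif2s3y, so neither direction can be told apart from a difference between sets of arrays.

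The order of mean levels over the 7 groups differed by role. It sets the 9 subregion arrays, which stand apart in Xist, Eif2s3y and upper tail, beside the other 24. All 3 subregion means were above the whole cortex for Tnfsf11, Lta, Cd40 and Traf6 and below it for Ltb, Tnfrsf11a, Ltbr and Tnfrsf11b, so places of subregions relative to the other groups cannot be told apart from a difference between these sets of arrays. For the ligand genes, medullary thymocytes had the highest mean and whole medulla the second, and their arrays overlapped: 885 ± 213 (SD, n = 5) and 576 ± 146 (SD, n = 7) for Tnfsf11, 593 ± 120 and 476 ± 79.8 for Lta, and 12715 ± 3426 and 10405 ± 1098 for Ltb. Perimedullary cortex came next for Tnfsf11 at 285 ± 25.4 (SD, n = 3) and for Lta at 192 ± 47.9, without overlap with the groups above or below. For Ltb, cortical thymocytes came next at 4933 ± 477 (SD, n = 5), overlapping with whole cortex at 3987 ± 836 (SD, n = 7). Ltb was lowest in subcapsular cortex at 1350 ± 138 (SD, n = 3).

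For the receptor genes, whole medulla had the highest mean and sorted thymocytes the lowest. Cd40 had 1887 ± 264 in whole medulla, 533 ± 69.8 in perimedullary cortex, 358 ± 31.4 in central cortex, 295 ± 43.5 in subcapsular cortex, 199 ± 59.0 in whole cortex, 35.6 ± 22.8 in medullary thymocytes and 13.4 ± 13.5 in cortical thymocytes (SD, same n). The arrays of subcapsular and whole cortex overlapped, as did those of the sorted groups, and the other neighbours were apart. Tnfrsf11a had 409 ± 87.9 in whole medulla and 123 ± 54.3 in whole cortex, and from whole cortex down to cortical thymocytes at 49.2 ± 10.2 every neighbouring pair overlapped. Ltbr ran from 402 ± 89.7 in whole medulla to 100 ± 62.2 in cortical thymocytes with overlap between all neighbours.

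Relb and Nfkb2 had their highest mean in whole medulla, at 2125 ± 179 and 1246 ± 201 (SD, n = 7), followed by medullary thymocytes at 586 ± 93.6 and 641 ± 207 (SD, n = 5), with no overlap between these groups for either gene. Perimedullary cortex came next for both, with 272 to 333 for Relb and 197 to 226 for Nfkb2. Tnfrsf11b stood apart in whole medulla alone, and its other 6 group means lay between 5.86 and 14.4 with overlapping arrays. Traf6 was highest in central cortex, at 897 ± 114 (SD, n = 3), and lowest in medullary thymocytes, at 446 ± 71.3 (SD, n = 5), and its central cortex arrays did not overlap with the next group, subcapsular cortex. The other 3 Traf6 probe sets that passed the filter gave other orders, with the highest mean in cortical thymocytes for a pair of them (314 and 166) and in whole cortex for the remaining one (179).

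Of the 18 probe sets that passed the filter, 13 were called higher in whole medulla than in whole cortex and 0 lower, while 15.5% of all probe sets tested were called higher and 5.10% lower. The 5 that were not called were the Ltbr probe set and the 4 of Traf6. The other probe set of Tnfsf11 gave a log2 fold change of 1.29 (SE 0.27) and that of Nfkb2 1.65 (SE 0.28), both smaller than the brighter probe sets. The other Tnfrsf11a probe set gave 2.18 (SE 0.22), but it passed the filter only through whole medulla, so its call is not independent of that filter. The 3 Cd40 probe sets gave 3.12, 2.98 and 2.75. Traf6 had values from -0.58 to 0.57 over its 4 probe sets that passed. The lowest of these, lower in medulla (SE 0.16, limma adjusted p = 0.002 over all probe sets), missed a call only by the fold threshold.

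**Figure D4:**
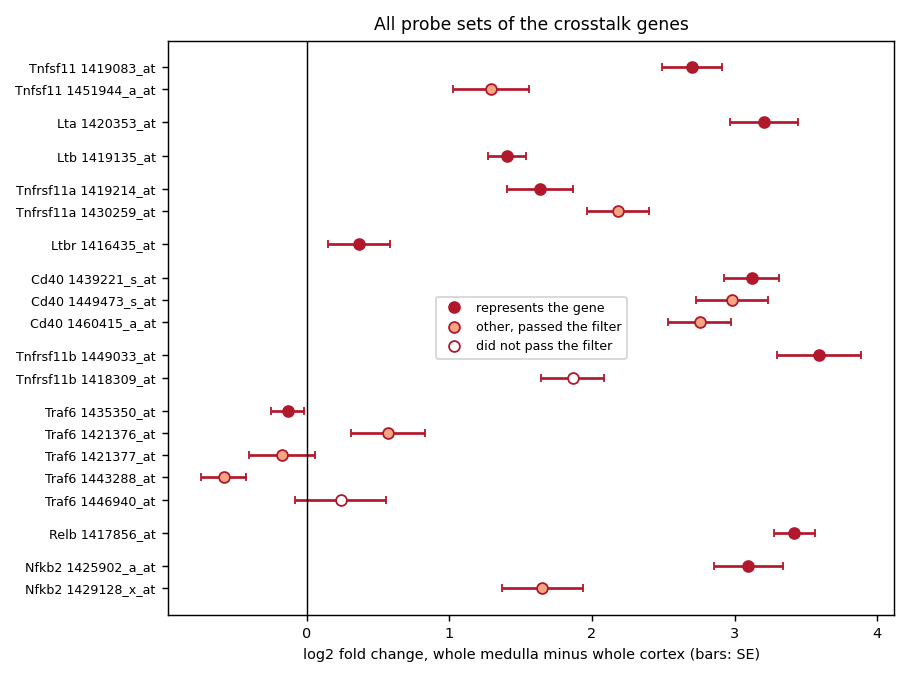
Log2 fold change of whole medulla minus whole cortex for all 20 probe sets of the crosstalk genes, with standard errors as bars. Filled dark points represent the gene, light points are its other probe sets, and open points did not pass the filter. All probe sets lie above 1 except those of Ltbr and Traf6.

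Probe sets of the same gene disagreed in the subregions. One of the other Cd40 probe sets had 8.59 to 59.7 over the 9 subregion arrays and 114 to 182 in whole cortex, whereas the one that represents the gene had 247 to 573 in the subregions and 136 to 291 in whole cortex. Perimedullary against subcapsular cortex gave 1.47 (SE 0.38, limma adjusted p = 0.0082 over all probe sets) for the remaining Cd40 probe set, a call that 2.64% of all probe sets tested had, and -0.11 (SE 0.34) for the dim one. Likewise the other Tnfsf11 probe set had 3.38 to 16.9 in the subregions with a perimedullary over subcapsular value of 0.09 (SE 0.41). In whole cortex against cortical thymocytes, 1 Traf6 probe set was called lower at -1.34 (SE 0.28, limma adjusted p = 0.00028), as were 4.37% of all probe sets tested, while the one that represents Traf6 gave 0.17 (SE 0.13).

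Other genes of the pathway were described by lists of related ligands, receptors, adaptors, kinases, NF-kB genes and targets, 55 genes of which 48 were tested. In whole medulla against whole cortex, 30 of the 48 were called higher and 0 lower, with a median log2 fold change of 1.43, against 18.7% of all genes tested called higher. In medullary against cortical thymocytes, 15 were called higher and 1 lower (median 0.53), against 7.69% and 6.31% of all genes tested. In the interaction, 13 were larger in tissue and 3 in thymocytes (median 0.56), against 12.8% and 2.22% of all genes tested. Of these 13, 9 were among the 10 tested targets in medullary stroma. From the remaining lists, 2 of 8 ligands, 1 of 7 receptors and 1 of 8 inhibitors and feedback genes were larger in tissue. The 3 larger in thymocytes were 2 ligands and 1 gene of the inhibitors and feedback genes.

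Among ligands, 5 of 8 were higher in whole medulla, led by Tnf, the neighbour of Lta and Ltb, with a log2 fold change of 1.76 (SE 0.30), and Tnfsf10, which codes for TRAIL, with 1.65 (SE 0.15). In sorted cells 3 of 8 were higher in medullary thymocytes: Tnfsf8, the CD30 ligand, with 2.11 (SE 0.30), Tnf with 2.06 (SE 0.35), and Cd40lg, the ligand of CD40, with 1.27 (SE 0.37). Cd40lg had 82.4 ± 62.7 in medullary and 13.1 ± 2.31 in cortical thymocytes (SD, n = 5 each), and 43.6 ± 18.5 in whole medulla and 51.4 ± 47.5 in whole cortex (SD, n = 7 each), where it was not called. These tissue values of Cd40lg were picked after they were seen, as CD40 is among the 10 genes.

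Among receptors, 5 of 7 were higher in whole medulla and 4 of 7 in medullary thymocytes. Tnfrsf4, which codes for the costimulatory receptor OX40, had 3.04 (SE 0.18) in tissue and 3.28 (SE 0.22) in thymocytes, and Tnfrsf9, which codes for the costimulatory receptor 4-1BB, had 2.59 (SE 0.26) in tissue and 2.90 (SE 0.31) in thymocytes. Among adaptors, 5 of 7 were higher in whole medulla and 3 of 7 in medullary thymocytes. Traf1 had 3.06 (SE 0.14) in tissue and 2.10 (SE 0.17) in thymocytes, and Birc3, an E3 ligase bound by TRAF proteins, had 2.08 (SE 0.10) in tissue.

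Of 6 kinases, 2 were higher in whole medulla and 1 in medullary thymocytes. Map3k14, which codes for NIK, the kinase that starts the alternative pathway, had 1.55 (SE 0.23) in tissue. Ikbke, a relative of the IkB kinases, had 2.43 (SE 0.15) in tissue and 2.52 (SE 0.17) in thymocytes. Among 8 inhibitors and feedback genes, 4 were higher in whole medulla and 2 in medullary thymocytes, and Bcl3, an atypical IkB protein, led both with 3.30 (SE 0.19) in tissue and 4.56 (SE 0.23) in thymocytes. Bcl3 was also one of the 3 genes with a larger difference in thymocytes (-1.26, SE 0.30, limma adjusted p = 0.0012).

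Of 10 genes listed as targets in medullary stroma, 8 were higher in whole medulla and 9 had a larger difference in tissue than in thymocytes. The list was chosen as genes of medullary stroma, so these counts follow in part from that choice. Aire, Fezf2, Spib and Cldn4 are also among the medullary epithelial markers, and Ccl22 is among the dendritic cell markers. The 10 genes count among the 48 pathway genes as well. Aire, the regulator of self-antigen expression, had an interaction of 4.92 (SE 0.38), Ccl22, a chemokine of medullary epithelium and dendritic cells, of 5.26 (SE 0.31), Spib, a transcription factor, of 4.57 (SE 0.28), and Fezf2, another regulator of self-antigens, of 4.40 (SE 0.31). In thymocytes 1 target was higher, Icam1, an adhesion molecule, with 1.45 (SE 0.13), and 1 was lower, Cldn4, a tight junction protein, with -2.21 (SE 0.23).

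In perimedullary against subcapsular cortex, 12 of the 48 pathway genes were called higher and 0 lower, against 2.94% and 1.66% of all genes tested. Ccl22 had 2.28 (SE 0.30), Traf1 1.54 (SE 0.21), Nfkbiz, an atypical IkB protein, 1.53 (SE 0.18), Ikbke 1.47 (SE 0.23) and Tnfrsf4 1.45 (SE 0.28). None of the 8 other ligands was called, and Tnfsf14, which codes for LIGHT, a further ligand of the lymphotoxin beta receptor, had the smallest p among them, with a log2 fold change of 0.70 (limma adjusted p = 0.28).

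**Figure D5:**
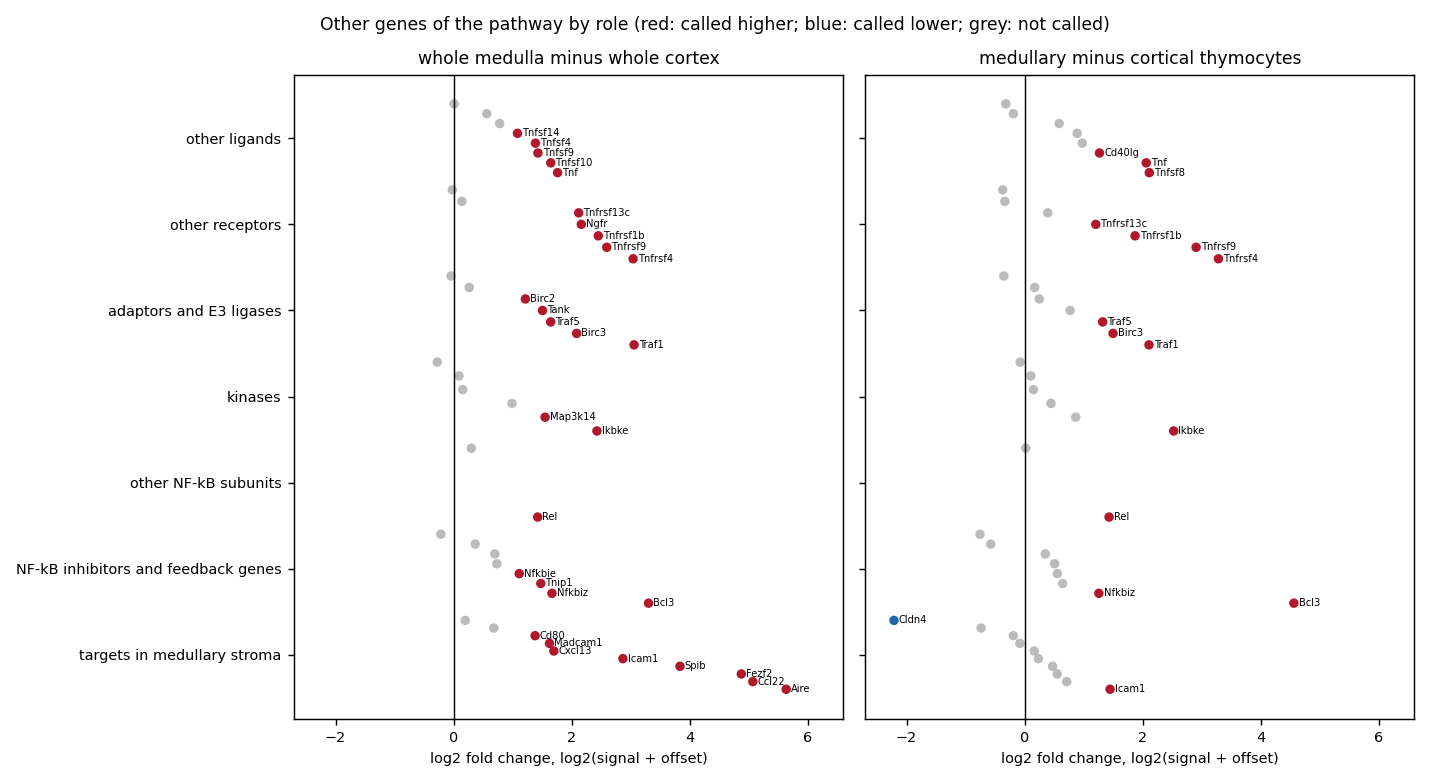
Log2 fold changes of the 48 other pathway genes tested, by role, for whole medulla minus whole cortex (left) and medullary minus cortical thymocytes (right). Each point is a gene, with red for called higher, blue for called lower and grey for not called. Receptors and adaptors have red points in both panels, and the stromal targets have 8 red points on the left and 1 on the right.

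Across the 33 arrays, Pearson correlations of log2 signals were 0.66 to 0.88 between ligand genes, 0.71 to 0.80 between receptor genes, and 0.037 to 0.39 between a ligand and a receptor gene. These describe 7 groups of arrays that share compartments and kits, and are not independent points. They also pool the 9 subregion arrays with the other 24, and these sets differ in level for several of the genes. Tnfsf11 and Lta had 0.88, and Relb had 0.88 with Nfkb2, 0.85 with Tnfrsf11b, 0.81 with Lta and 0.79 with Tnfsf11. Tnfrsf11a had 0.85 with Tnfrsf11b, 0.80 with Cd40 and 0.29 with Tnfsf11, the gene of its ligand. Traf6 and Ltb had -0.72. The subregion means lay above whole cortex for Traf6 and below it for Ltb, so this value cannot be told apart from a difference between the sets of arrays.

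Over all genes tested, the patterns most like Tnfsf11 were those of Gramd4 (r = 0.97), Tgfbr2 (0.97) and Smad7 (0.96), and those most like Ltb were Tspan32 (0.97), Vasp (0.96) and Myd88 (0.96). For Relb they were S100a4 (0.98), Usp18 (0.98) and Cd44 (0.97). For Cd40 they were Parm1, Dsg2 and Itpripl2 (0.98 each). Tnfrsf11a was most like Ogfrl1 (0.93), Serpinb1a (0.93) and Vwa1 (0.92), and Tnfrsf11b most like Clca1, Insm1 and Reg3b (0.96 each). Each r is over the same 33 arrays and has the same limits as those above.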

How the data were processed

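Per the labels, biotin-labelled cRNA primed with oligo-dT was hybridised to Affymetrix arrays. The deposited values are linear array intensity, with a value for each probe set, made by the authors with Affymetrix Expression Console 1.0 and MAS5, per the submitters' processing notes. Of 45037 probe sets, 34945 had 1 gene symbol, 932 several and 9160 none, and 34741 were matched to RefSeq by gene ID.

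Log2(signal + 26.2) was computed, where the offset is the arrays' median lower quartile. Probe sets above their array's median in at least 3 arrays were kept (30045), the brightest represented its gene, and 13463 genes were tested. A model of 7 groups was fitted to all 33 arrays with limma 3.58.1 in R 4.3.3 (26 residual degrees of freedom, trended prior), with 2-sided p-values adjusted by Benjamini-Hochberg over all genes. Precision is limited by how many arrays there are. The fit was tested on simulated data. Deviations of same-numbered whole medulla and whole cortex replicates correlated above 0.1 in 4 of 7 pairs, with a highest r of 0.257. The median r between different numbers was -0.0368. The wide upper tail also fell on the same replicate numbers in both groups. Whether the numbers mark samples that belong together is not known, and the main fit did not take them as pairs. The genes, lists and alternatives were chosen with earlier results of these data known. The text names all 10 members, up to 4 called genes of each list with the largest absolute change in a comparison (or the gene with the smallest p where none is called), and the 3 genes most like each of 6 members. The tissue values of Cd40lg fall outside this rule and were picked after they were seen.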

Additional observations from a re-analysis of the deposited data

Results flagged for a closer look

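In 80 checks of a probe set within a group of 5 or 7 arrays, 8 found 1 array far from the others, and chance marks about 1 in 20. For the probe sets that represent their gene, these were Tnfsf11 in whole cortex replicate 1 (7.93, others 65.9 to 99.9), Lta in medullary thymocyte replicate 3 (383, others 609 to 669), Cd40 in cortical thymocyte replicate 3 (37.4, others 5.33 to 9.48) and Nfkb2 in whole cortex replicate 2 (17.9, others 107 to 224). For probe sets that do not represent their gene they were Tnfsf11 in medullary thymocyte replicate 2 (105, others 236 to 310), Tnfrsf11a in whole cortex replicate 2 (136, others 43.6 to 72.4), Tnfrsf11b in whole cortex replicate 3 (42.2, others 4.83 to 8.95) and Traf6 in medullary thymocyte replicate 2 (39.0, others 11.2 to 14.2).

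The medulla minus cortex difference of 4 genes differed between tissue and sorted thymocytes by the interaction test: Tnfrsf11b by 3.24, Cd40 by 2.52, Tnfrsf11a by 1.61 and Nfkb2 by 1.41 on the log2 scale, each larger in tissue (limma adjusted p between 1.6e-08 and 0.0033).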

How the results depend on the processing

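Of the 28 calls of crosstalk genes, 27 held in every alternative in which the gene was tested, no call changed sign, and 1 was lost in some: Nfkb2 in perimedullary against subcapsular cortex. That call was lost with an offset of 6.55, with quantile normalization, with the mean of the probe sets and without any 1 of the 6 arrays, with log2 values between 0.83 and 1.26 in these fits. The stricter filter left Tnfrsf11b untested. Apart from fits that left out single arrays, the alternatives gave 7 to 8 called genes for whole medulla against whole cortex (8 as reported). They gave 5 to 6 for medullary against cortical thymocytes (5) and 3 to 5 for the interaction (4). Perimedullary against subcapsular cortex had 3 to 5 (4) and whole medulla against medullary thymocytes 4 to 7 (5). The number of called genes was 1 in place of 0 for perimedullary against central cortex and for subcapsular against central cortex with the adjusted p alone. For whole cortex against cortical thymocytes it was 4 with the adjusted p alone, 5 with the smaller offset (4 higher and Lta lower), and 2 to 4 when single arrays were left out, against 2. Lowering the offset weights weak signals more, and the cause of its effect on single genes was not tested. With the replicate number as a block, the counts were the same as without it. They were 8 for whole medulla against whole cortex, 5 for medullary against cortical thymocytes and 4 for the interaction. Perimedullary against subcapsular cortex gave 4, and perimedullary and subcapsular cortex against central cortex gave 0 each. Whole cortex against cortical thymocytes gave 2 and whole medulla against medullary thymocytes 5. Whether the numbers pair the samples is not known. Whole medulla against whole cortex gave 8 calls with only the wide-tailed arrays and 8 without them. Counts of the 48 other pathway genes ranged over all alternatives from 22 to 39 in whole medulla against whole cortex (30 as reported), from 12 to 31 in thymocytes (16), from 9 to 26 in the interaction (16) and from 8 to 19 in perimedullary against subcapsular cortex (12). The fit without the 9 subregion arrays was chosen after seeing the data. Signals near the bottom of the scale, such as Tnfrsf11b outside whole medulla, have no reliable order.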
